A study of Mus musculus with 4 samples.

Results

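A set of 6 transcription regulators of the pharyngeal pouches and of the thymus and parathyroid glands that form from them were followed in E10.5 mouse larynx RNA: Pax1, Pax9, Eya1, Six4, Gcm2 and Foxn1. They were taken by gene symbol and are 6 of the 46983 genes in the deposited tables. The data are bulk RNA-seq of 4 libraries, each from 3 pooled larynxes of embryos with 32 to 35 somites. Pools 1 and 2 are Shh-/-, homozygous for a germline null allele of Shh (Shhtm1amc), and pools 4 and 6 are Swiss Webster WT. The study's methods give a Swiss Webster background for the null allele too. The series design and the study's methods give the mutant genotype as Shh-/-, while the sample labels write Shh+/- for the same pools. Shh is lost from the whole embryo, so an effect within the larynx and an effect of neighbouring tissue cannot be told apart, and the sources used here do not say whether pools came from separate litters, so the p-values measure only the spread between these pools.

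The pharyngeal pouches are outpocketings of foregut endoderm between the pharyngeal arches, just in front of the region that makes the larynx. Pax1 and Pax9 are paired-box transcription factors of pouch endoderm, and both are also known from the sclerotome, the part of the somite that makes vertebrae. Eya1, a coactivator with phosphatase activity, and the homeodomain factor Six4 work in pouches, placodes and mesenchyme, while Gcm2 specifies the parathyroid gland and Foxn1 drives maturation of thymic epithelium. Sonic hedgehog from the pharyngeal endoderm is known to affect how the pouch that forms both glands is divided between thymus and parathyroid fates.

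The sequences shown first are those of the paralogs Pax1 and Pax9, because the values of both rest on reads being assigned to the right gene and because their levels differed unequally between the genotypes. The longest run of bases shared by the main spliced transcripts of Pax1 (Pax1-201, positions 475 to 500 of 2643) and Pax9 (Pax9-203, positions 569 to 594 of 4232) was 26 bases, shorter than the 75-nt reads. No 75-base window of any member's transcripts occurred in another member. Of the windows of Pax1, 111 of 4415 also occurred in the overlapping gene AI646519, and of those of Pax9, 115 of 5055 also occurred in Slc25a21. The 250 bases before the RefSeq start (GRCm38.p6) lie on the plus strand at chr2:147364744-147364993 for Pax1 and at chr12:56695221-56695470 for Pax9, both inside the listed span of their own gene. CpG dinucleotides are in capitals in the 2 promoters, and the shared transcript run is all in lower case.
Shared run of Pax1-201 and Pax9-203: atcctggcgcgctacaacgagaccgg
Pax1 promoter: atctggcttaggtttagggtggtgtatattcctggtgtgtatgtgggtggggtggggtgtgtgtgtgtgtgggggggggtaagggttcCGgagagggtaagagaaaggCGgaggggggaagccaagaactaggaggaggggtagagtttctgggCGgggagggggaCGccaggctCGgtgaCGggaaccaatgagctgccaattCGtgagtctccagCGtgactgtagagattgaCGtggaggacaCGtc
Pax9 promoter: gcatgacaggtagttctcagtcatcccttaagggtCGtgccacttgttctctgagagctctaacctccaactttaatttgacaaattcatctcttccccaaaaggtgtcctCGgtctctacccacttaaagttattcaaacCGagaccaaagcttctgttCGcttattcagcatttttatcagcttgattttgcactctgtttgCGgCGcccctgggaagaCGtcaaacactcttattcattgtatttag

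The Pax1 promoter held 10 CpG and 58.8% G or C, and the Pax9 promoter 7 CpG and 43.6%, beside medians of 6 CpG and 52.4% over 32851 mouse promoters. Promoters were found for 5 of the 6 members, all but Eya1. The letters GACCACCCA, the core sequence of GLI sites, occurred on either strand in none of the 6 promoters of these members and in 0.225% of all promoters. The letters TCAGGTT, the motif of Six4 and its relatives, occurred in 1 of them, that of Six4, and in 3.49% of all promoters, and the forkhead motif TGTTTAC in none and in 3.17%. Such matches describe letters only.

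Each pool had 16432 to 17117 genes at a level of 1 TPM or more (TPM is a transcript abundance scaled for transcript length and to the same total in every library). Depth was 18300000 aligned reads in Shh-/- pool 1 and 37900000 to 41700000 in the other 3 pools. Shh was at 10.4 and 10.8 TPM in mutant tissue and at 23.7 and 42.1 in WT, a gene-level value that does not separate the deleted part of the gene from the rest. Ptch1, a transcriptional target of hedgehog signalling, was at 12.9 and 13.8 TPM against 57.8 and 55.1 (log2 fold change -1.997, adjusted p = 0.0319 by limma). Differences were tested with limma on log2(TPM + 1) in 16972 genes that averaged 1 TPM or more over the pools, with p-values adjusted by the Benjamini-Hochberg method and called under 0.05. This scale understates the change of low genes. The median change of all tested genes was 0.08 on the log2 scale, and 58.3% lay above 0.

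All 6 factors had both Shh-/- pools above both WT pools, for Foxn1 on few reads. Among tested genes, this pattern held for all 4 tested members and for 38% of the 16972 genes, while 22.7% had both Shh-/- pools below both WT pools. No member passed the adjusted threshold, beside 0.725% of tested genes that did (0.56% higher and 0.165% lower in Shh-/-). Of the 4 members with enough signal to be tested, 3 had an unadjusted p under 0.05 in limma, as did 4202 of the 16972 tested genes, or 24.8%. At an adjusted threshold of 0.10, Pax1 and Eya1 were called higher, as were 3.95% of tested genes (5.06% in either direction). The median log2 difference of the 4 tested members was 0.97. Gcm2 and Foxn1 were under the filter and were not tested. In bulk tissue, fewer or more cells of a type and less or more RNA per cell cannot be told apart.

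**Figure D1:**
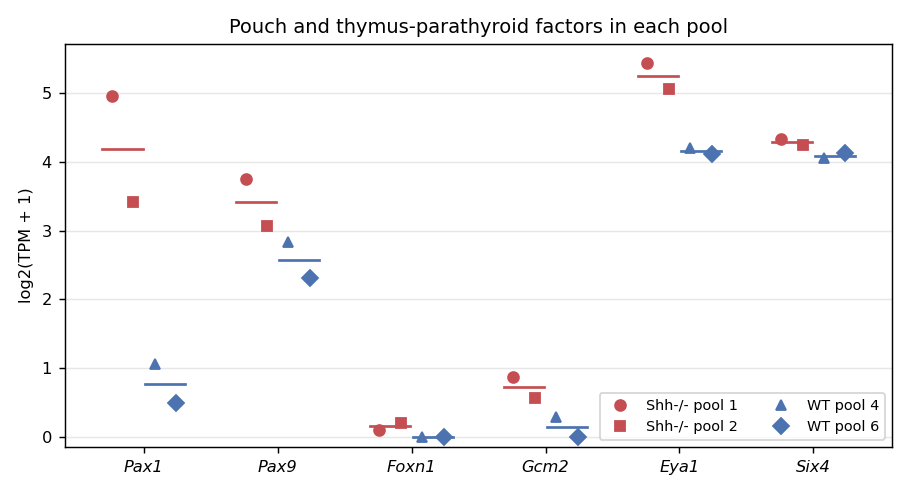
Level of each of the 6 factors in each pool as log2(TPM + 1), with Shh-/- pools in red, WT pools in blue and a short line at each group mean. Both red points lie above both blue points for every gene, by the widest margin for Pax1 and by a narrow one for Six4, while Foxn1 and Gcm2 lie near 0.

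Pax1 was at 30.1 TPM in Shh-/- pool 1 and 9.67 in pool 2, beside 1.08 TPM in WT pool 4 and 0.400 in pool 6. It was low in WT and higher in both mutant pools, with no overlap, and pool 1 was far above pool 2. The means were 19.9 ± 14.4 and 0.742 ± 0.483 TPM (SD, n = 2 pools each), a ratio of 26.8. The log2 difference was 3.41 with an SE of 0.55 and a 95% interval of 1.997 to 4.83, the 8th highest of 16972. With limma its p was 0.00164 and its adjusted p 0.0736, so it did not pass the threshold. The 2 Shh-/- pools differed by 1.54 on the log2 scale and the 2 WT pools by 0.57. Without Shh-/- pool 1 the log2 difference was 2.64, and without Shh-/- pool 2 it was 4.18. Those 2 pools also differed in depth and in Aldh1a2, a retinoic acid synthesis gene of mesoderm, which was at 8.52 TPM in pool 1 and 52.6 in pool 2; the part of either in the spread of Pax1 was not tested. The antisense gene AI646519, which overlaps Pax1, was at 0, 1.31, 0 and 0 TPM and did not follow it. By whole-mount in situ hybridization, the study reported Pax1 in the more anterior pouches of control embryos and not in the vocal folds. At slightly later stages it reported the Pax1 domain as unchanged in Shh-/- embryos. Bulk RNA does not show where in the dissected tissue Pax1 was expressed.

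Pax9, the paralog of Pax1, had 12.5 and 7.38 TPM in the mutant pools beside 6.13 and 3.97 in WT. Pax1 was at 1.08 and 0.400 TPM in WT, while Pax9 was at 3.97 TPM or more in all 4 pools. The lower mutant pool of Pax9 lay only just above the higher WT pool. The log2 difference was 0.84 with an SE of 0.32 and a 95% interval of 0.025 to 1.65, and the adjusted p was 0.194 in limma, which did not pass. Its spread within a genotype, 0.69 in Shh-/- and 0.52 in WT, was close to the difference itself. Slc25a21, a mitochondrial carrier gene whose span overlaps Pax9, was at 3.07 and 2.52 TPM against 2.26 and 1.48, a log2 difference of 0.41 in the same direction.

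The balance of the paralogs differed between genotypes within each pool. On TPM + 1, the ratio of Pax1 to Pax9 was 2.30 and 1.27 in the mutant pools beside 0.292 and 0.282 in WT. Pax1 was thus the higher of the pair in both mutant pools and the lower in both WT pools, and the mean log2 ratio differed by 2.58. A two-sided exact permutation test gave p = 0.333, the smallest value that 2 pools against 2 can give, for this ratio and for each of the ratios examined, 4 in all (adjusted p = 0.333), so no ratio could pass 0.05.

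Eya1 was the most abundant of the 6 factors, with 42.5 and 32.5 TPM in the mutant pools beside 17.4 and 16.2 in WT. The groups were well apart and the WT pools nearly equal. The means were 37.5 ± 7.09 and 16.8 ± 0.800 TPM (SD, n = 2 each), a ratio of 2.23, and the log2 difference was 1.10 with an SE of 0.17 and a 95% interval of 0.66 to 1.54. With limma its p was 0.00134 and its adjusted p 0.0709, short of the threshold. Leaving out single pools moved the log2 difference between 0.91 and 1.29.

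Six4 was at 19.1 and 18.0 TPM in Shh-/- and at 15.6 and 16.4 TPM in WT. All 4 pools lay in a narrow band, with the mutant pools slightly higher. The log2 difference was 0.20 with an SE of 0.13 and a 95% interval of -0.14 to 0.54, with an adjusted p of 0.377 in limma. It shrank to 0.07 when each library was centred on its median or quantile normalized, while the median of all tested genes moved from 0.08 to -0.05 with centring. The ratio of Eya1 to Six4 on TPM + 1 was 2.17 and 1.76 in the mutant pools and 1.11 and 0.990 in WT, higher in both mutant pools.

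Gcm2 was at 0.826 and 0.479 TPM in Shh-/- and at 0.218 and 0 TPM in WT. It was below 1 TPM in every pool, and the mutant pools were the higher ones. The untested difference was 0.57 on log2(TPM + 1), and when the filter was dropped its adjusted p was 0.241 in limma. The 0 of Gcm2 in WT pool 6 need not mean absence, since 5 other genes had a listed level of 0 in 1 pool although the remaining 3 pools held them at 10 TPM or more.

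Foxn1 was at 0.0709 and 0.150 TPM in Shh-/- and was listed at 0 in both WT pools. With a single annotated transcript of 3214 nt, these values correspond to 2 and 10 reads against 0 and 0. A count of 3 reads, the limit that a count of 0 allows, would be 0.106, 0.0450, 0.0492 and 0.0471 TPM in Shh-/- pools 1 and 2 and WT pools 4 and 6, and it covers counting error only. Both Shh-/- pools were above the limits of the 2 WT pools. Shh-/- pool 1, with 2 reads, was below the level of 3 reads in its own library. With so few reads, no fold is given. Without the filter the adjusted p was 0.359 in limma.

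Among the 4 tested members, the order of mean TPM over the pools was Eya1 (27.2), Six4 (17.3), Pax1 (10.3) and Pax9 (7.50). In WT, Eya1 at 16.2 to 17.4 TPM and Six4 at 15.6 to 16.4 overlapped and were followed by Pax9 and then Pax1. In Shh-/-, Eya1 was the highest in both pools, while Six4 at 18.0 to 19.1 lay inside the range of Pax1, 9.67 to 30.1, and Pax9 at 7.38 to 12.5 overlapped that range too. The order Shh-/- pool 1, Shh-/- pool 2, WT pool 4, WT pool 6 from high to low held for Pax1, Pax9, Eya1 and Gcm2, and for 18.8% of tested genes.

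The partners of these factors in pouches (other Eya and Hox genes, relatives of Six4, Dach genes and Tbx1 among them) were 13 genes, all tested. Of these, 2 rose in Shh-/- and none fell, beside 0.56% and 0.165% of all tested genes. Their median log2 difference was 0.61 (0.23 after correction for GC content and transcript length). Both Shh-/- pools lay above both WT pools in 10 (38% of all tested genes) and below them in 2 (22.7%). Eya2, a second Eya coactivator, was among those that rose, at 26.1 and 21.4 TPM against 7.47 and 6.70 (log2 difference 1.61, adjusted p = 0.0449 in limma). The call of Eya2, and those of Pax3 and of the marker genes named below, were lost without the filter on low levels and with any pool left out. Eya1 stayed above Eya2 in all 4 pools, but the ratio on TPM + 1 was 1.60 and 1.496 in Shh-/- and 2.17 and 2.24 in WT.

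Hoxa3, a homeodomain factor required for thymus and parathyroid development, was at 43.9 and 33.5 TPM against 21.1 and 16.4, a log2 difference of 1.002 close to that of Eya1, with an adjusted p of 0.0957 in limma. At the adjusted threshold of 0.10, 5 of the 13 genes were higher, beside 3.95% of all tested genes, among them Eya2, Hoxa3, Hoxd3 and Dach1. The last pair, named here after their values were seen, had log2 differences of 0.86 and 0.77. Of the abundant partners, Hoxb3 and Eya3 had log2 differences of 0.53 and -0.10, short of the threshold. Tbx1, a T-box factor needed for pouch outgrowth, was at 45.5 and 48.9 TPM against 41.2 and 32.6, a log2 difference of 0.35 with an adjusted p of 0.229 in limma, which turned to -0.10 when libraries were corrected for GC content and transcript length.

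**Figure D2:**
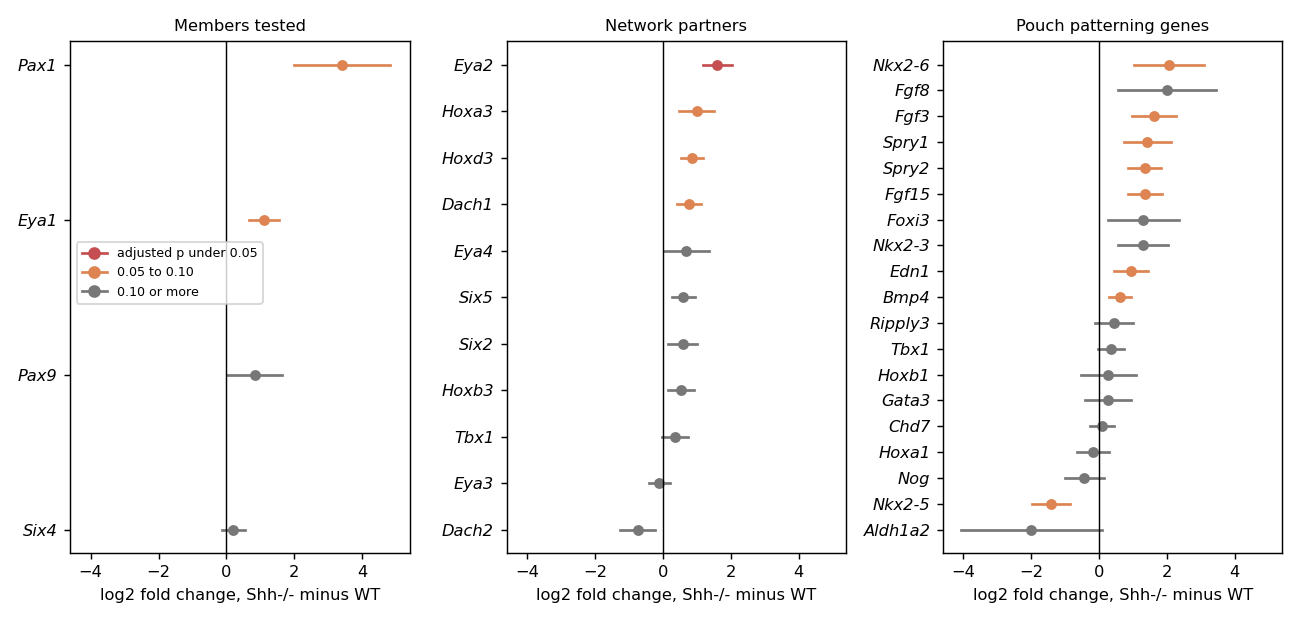
Log2 fold change (Shh-/- minus WT) with its 95% interval for the tested factors and for those network partners and pouch patterning genes that are reported here, coloured by adjusted p. Pax1 at 3.41 and Eya1 at 1.10 lie between the thresholds of 0.05 and 0.10, and Eya2 at 1.61 passes 0.05.

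Pouch patterning genes, which set where pouches form and how they divide, numbered 20, all tested. None rose and 1 fell, beside 0.56% and 0.165% of all tested genes, and the median log2 difference was 0.53. At the adjusted threshold of 0.10, 7 were higher and 2 lower, beside 3.95% and 1.11% of all tested genes. Nkx2-5, lower at 0.10 and named after its values were seen, had a log2 difference of -1.42. Bmp4 and Spry2, a signal and a feedback inhibitor of FGF signalling, had log2 differences of 0.62 and 1.35 and adjusted p of 0.0987 and 0.0631 in limma. Hoxb1 was at 16.7 and 26.2 TPM against 21.8 and 13.5, so its groups overlapped.

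Genes of the organs that arise from the pouches were mostly low or not past the test. Of 15 genes of thymus, parathyroid and ultimobranchial body, 7 were tested, with a median log2 difference of 0.09. Of those 7, 1 rose and none fell, beside 0.56% and 0.165% of all tested genes. Pth, the parathyroid hormone gene, and Tbata were listed at 0 in all pools. Casr, Prss16, Aire and Psmb11 were below 1 TPM in every pool, and for each of them the genotypes overlapped. The chemokines Ccl25 and Cxcl12 and the ligand gene Kitl, which serve colonization of the thymus, had log2 differences of 0.09, -0.16 and -0.15, and Gata3 one of 0.26. In level, Ccl25 was at 10.54 and 11.2 TPM against 10.4 and 9.86, with little spread over the pools. Unlike those, the low and untested Il7 and Ccl21a, named after their values were seen, were higher in both mutant pools, as Gcm2 and Foxn1 were. Il7 was at 1.10 and 0.896 TPM against 0.205 and 0.195, and Ccl21a at 0.938 and 0.602 against 0.163 and 0. Casr, Prss16, Aire and Psmb11 did not share this pattern.

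Other Pax genes were compared with Pax1 and Pax9 because they share the paired domain. Of 7, Pax4 was listed at 0 in all pools and 3 were tested. Pax3, a gene of somite and neural crest, rose from 0.270 and 0.0392 TPM in WT to 3.77 and 3.84 in Shh-/- (log2 difference 2.06, adjusted p = 0.0470 in limma). Pax8, a gene of thyroid and otic placode, was at 14.8 and 9.56 TPM against 1.43 and 0, with a log2 difference of 3.05 and an adjusted p of 0.0719 in limma. Pax6 had a log2 difference of 0.88, short of the threshold.

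Pax1 and Pax9 lie in related chromosomal blocks with Foxa and Nkx2 genes, which are foregut and floor plate factors. Foxa2, 650 kb from Pax1, was at 5.34 and 9.12 TPM in Shh-/- and at 29.2 and 39.8 TPM in WT, a log2 difference of -2.13 (adjusted p = 0.0602 in limma). Nkx2-1, 155 kb from Pax9, was at 6.16 and 3.61 TPM against 15.9 and 17.9, a log2 difference of -1.64 (adjusted p = 0.0715 in limma). Foxa1, 828 kb from Pax9, was at 14.5 and 15.6 TPM against 25.6 and 37.8, a log2 difference of -1.004. In both blocks the Pax gene was higher and these neighbours lower in the mutant pools, with no overlap between the groups, although none of them passed the adjusted threshold of 0.05. Nkx2-2, 168 kb from Pax1, was low but higher in the mutant pools, like Pax1, at 0.591 and 0.427 TPM against 0.0954 and 0.0702, and was not tested. Nkx2-4 was listed at 0 in all pools, and Nkx2-9, 78.5 kb from Pax9, was above 0 in WT pool 6 only.

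**Figure D3:**
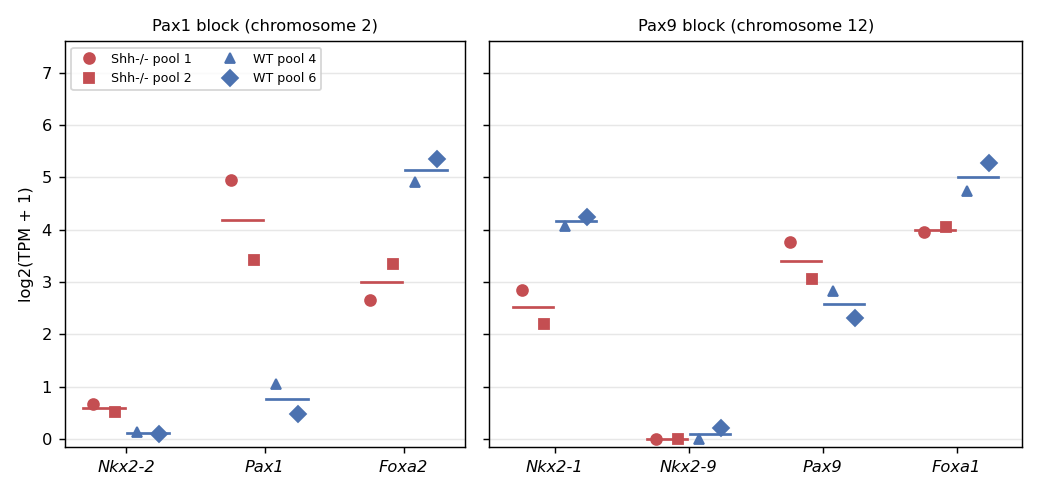
Level as log2(TPM + 1) in each pool for Pax1 and Pax9 and genes of their chromosomal blocks (Nkx2-1, Nkx2-2, Nkx2-9, Foxa1 and Foxa2), with Shh-/- in red, WT in blue and a line at each group mean. Pax1 and Pax9 are higher and Foxa2, Nkx2-1 and Foxa1 lower in the red pools.

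Of 60 tested genes within 500 kb of a member, 37 had a log2 difference above 0, beside 58.3% of all tested genes. Their median was 0.16, beside 0.08 for all tested genes. Neither of the 2 tested neighbours of Pax1 was higher in Shh-/-, with log2 differences of -0.27 and -0.55. The single tested neighbour of Eya1, Msc, a factor of arch muscle progenitors, was lower in both Shh-/- pools, with a log2 difference of -1.88 that did not pass the test (adjusted p = 0.160 in limma).

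Over the 4 pools, the tested genes whose centred log2(TPM + 1) values lay nearest to those of Pax1 were the homeobox genes Msx1 and Alx4, at Euclidean distances of 0.701 and 0.704. Alx4 was at 16.7 and 10.8 TPM against 0.766 and 0.312. The nearest to Eya1 were Adamts4 and Slc16a11 at 0.0295 and 0.0413, to Pax9 Cabp1 and Snora17 at 0.0845 and 0.0942, and to Six4 Tmem220 and Zfp113 at 0.0106 and 0.0149. These distances grow with the size of a gene's change and are not comparable between members, and with 4 pools many genes can lie near one another.

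Because the 6 factors are made in several cell types, markers of those types were read in the same pools. Of all tested genes, 0.56% were called higher and 0.165% lower in Shh-/-. Foregut endoderm markers summed to 699 and 605 TPM in Shh-/- and 638 and 643 in WT, with a median log2 difference of 0.02 over 10 genes and none called. Sclerotome and somite markers, which include cells that use Pax1 and Pax9, summed to 103 and 115 TPM against 67.7 and 58.5, with 1 of 8 tested called higher (Pax3) and a median of 0.64. Of these 8, 4 had both Shh-/- pools above both WT pools and 1 had both below. In the other 3, Nkx3-2 and Foxc2 among them, the groups overlapped. Muscle progenitor markers summed to 64.0 and 99.2 TPM against 130 and 112, with none of 7 called and a median of 0.22. With FPKM values only 3 of the list were tested, with a median of -0.80, so the 2 medians cover different genes. Musk was at 0 in all pools. Of the 10 foregut markers, 4 had both Shh-/- pools above both WT pools and 4 had both below, so the sums join opposite differences, among them the lower Foxa2 and Nkx2-1 given above. Of the 7 tested muscle markers, 5 had a log2 difference above 0, while the sums were lower in Shh-/-, where the abundant Tcf21, named after its values were seen, was at 37.7 and 70.2 TPM against 90.3 and 88.4. Somite markers were higher in sum in both mutant pools, but only 4 of the 8 tested were higher in both, and Nkx3-2 and Foxc2 were not. The part of the somite markers in the differences of Pax1 and Pax9 was not tested.

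Cells of placodes and cranial ganglia use Eya1 and Six4. Markers of placode-derived and cranial sensory neurons summed to 502 and 518 TPM in Shh-/- and 192 and 181 in WT, with 3 of 10 called higher (Phox2a, Stmn2 and Tubb3) and a median log2 difference of 2.44. Of these 10, 9 had both Shh-/- pools above both WT pools. The other, Isl1, had both below, at 68.3 and 57.3 TPM against 93.1 and 116 (log2 difference -0.72). Pou4f1 was under the filter and was not tested. Otic and other placode markers summed to 95.8 and 75.8 TPM against 22.3 and 6.52, with none of 7 called, a median of 2.04, and Oc90, an otic gene, at 0 in all pools. Arch mesenchyme markers summed to 781 and 627 TPM against 364 and 308, with 1 of 10 called higher (Twist1) and a median of 1.297. Thyroid markers summed to 38.5 and 21.1 against 28.2 and 30.6, with none of 5 called and a median of -0.22. A filter at 5 TPM left only 3 thyroid markers, with a median of 1.22. Summed levels of neuronal, placodal and arch mesenchyme markers were thus higher in both mutant pools, as were Pax1, Pax9 and Eya1. Six4 was higher by a log2 difference of only 0.20. The part of these markers in the differences of the factors was not tested.

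**Figure D4:**
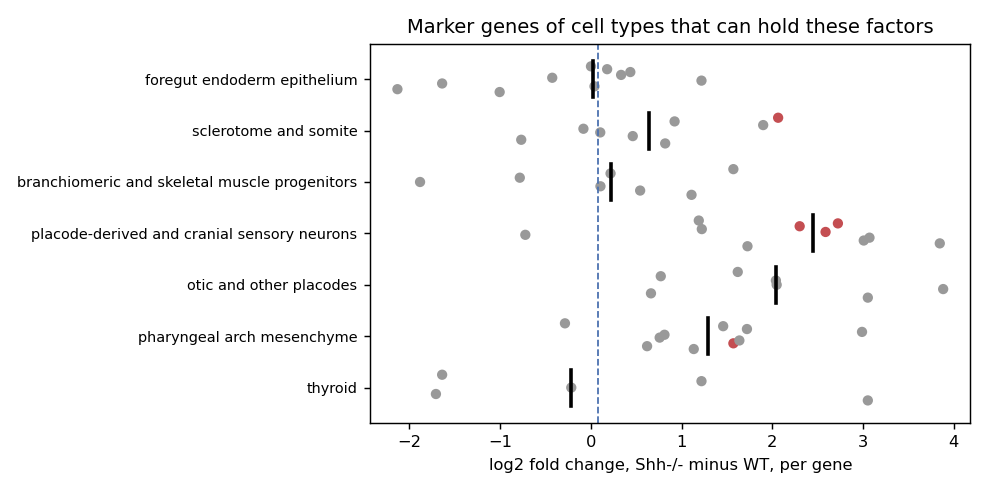
Log2 fold change (Shh-/- minus WT) of each tested marker gene, 1 point a gene, red where the adjusted p is under 0.05, with a black bar at the median of each list and a dashed line at the median of all tested genes, 0.08. The medians are highest for the list of placode-derived and cranial sensory neurons at 2.44 and that of placodes at 2.04, and near 0 for foregut endoderm at 0.02.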

How the data were processed

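Reads were aligned by the authors to mm10 with HISAT2 2.1.0 and assembled with StringTie 1.3.6, per the labels' processing notes. The gene annotation is not given in the sources used here. The deposited tables hold mean read coverage per gene, FPKM values (coverage scaled by the authors to the aligned bases of a library) and TPM values (FPKM scaled to a fixed sum). No column of counts was used. TPM was summed per gene ID and log2(TPM + 1) was compared with limma 3.58.1 in R 4.3.3 (lmFit, eBayes with a mean-variance trend) for genes averaging 1 TPM or more. The fit was tested on simulated data. Aligned reads were derived from FPKM and coverage with an inferred read length of 75 nt. Promoters came from RefSeq, transcripts from GENCODE M21. Named genes were all 6 members, every listed gene past the threshold and up to 4 others per list with the highest mean TPM. The members and lists were chosen with earlier results of these data known. Alternatives changed the pseudocount, filter, scaling, unit, variance model, threshold and pools. Some genes of the lists are included in the counts and medians and are not reported here by name.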

Additional observations from a re-analysis of the deposited data

How the results depend on the processing

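Each of the 4 tested factors stayed higher in Shh-/- under every alternative run, and all 6 did without a filter. None passed an adjusted p of 0.05 under any. In the main fit 2 (Pax1 and Eya1) passed 0.10, but not under every alternative. Without a filter their adjusted p were 0.168 and 0.155 in limma. With all pools, the log2 difference of Pax1 ranged from 2.80 with FPKM to 4.48 with a pseudocount of 0.1, with adjusted p of 0.0642 to 0.168 in limma. With 1 pool left out it ranged from 2.64 to 4.18, with adjusted p of 0.0699 to 0.291 in limma. The count of 123 genes differing became 69 with a pseudocount of 0.1, 0 of 28524 without a filter (5011 at an unadjusted p under 0.05), 858 at an adjusted p of 0.10, and 0 to 16 in limma when 1 pool was left out (2070 to 3761 at an unadjusted p under 0.05). Of the 92 tested genes of the lists, 9 passed; this became 0 without a filter, 37 at 0.10 and 0 with any pool left out, so the calls of Eya2 and Pax3 were each lost. In such fits the lone pool is assumed to vary like the other genotype. The difference of Tbx1 turned to -0.10 with the GC and length correction, and that of Hoxb1 ranged from -0.055 to 0.597 with 1 pool left out, negative without Shh-/- pool 2 (-0.038) or WT pool 6. No paired analysis was possible because the genotypes share no replicate number. Gcm2 and Foxn1, under 1 TPM in every pool, were tested only without the filter.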
